A study of Mus musculus with 10 samples.

Results

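The 34 genes described here are transcribed in male germ cells, the cells that form sperm inside the seminiferous tubules, and were followed through RNA sequencing libraries made from Leydig cells, which lie outside those tubules. They were found by symbol, and all 34 were among the 25239 gene symbols of the count table. By textbook stage of expression they fell into 20 spermatid genes, 9 spermatocyte genes and 5 early germ cell genes, the last active in spermatogonia or from spermatogonia onwards. The series asks, by its title, how reduced ketone body production in Leydig cells bears on ageing of the testis. It holds 10 libraries in 4 groups. MLTC-1, a line grown from a mouse Leydig cell tumour and kept in culture, was treated with DMSO (the solvent, n = 3) or with Hymeglusin, an inhibitor of HMG-CoA synthase (n = 3). Primary Leydig cells came from young mice of 2 months (n = 2) and from old mice of 24 months (n = 2) and had no treatment. The labels give no dose, no duration, no mouse strain and no isolation method. Nor do they state that replicates came from different animals or cultures. The p-values therefore reflect only how far these libraries differ among themselves, and that spread may be technical. A cultured line holds no germ cells, and MLTC-1 serves here as the reference without them, although cell type, culture and tumour origin differ from the primary cells at the same time.

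Male germ cells pass from spermatogonia, which divide by mitosis, through spermatocytes, which carry out meiosis, to haploid spermatids, which build the acrosome, the flagellum and a compacted nucleus. In spermatids histones are replaced first by transition proteins (Tnp1, Tnp2) and then by protamines (Prm1, Prm2), and these mRNAs are made in very large amounts and stored before translation. Several spermatid promoters carry a cyclic AMP response element bound by a testis form of the factor CREM.

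The promoter sequences of 5 spermatid genes are shown because these genes are transcribed in the same cells and rose together between the ages compared below. Each line holds the 120 bases before the RefSeq transcription start, on the minus strand of GRCm38.p6, with matches to the motif TGANNTCA in capitals. The motif is its own reverse complement, so both strands are covered, and it was chosen after the sequences had been seen. Gapdhs has a pair of annotated starts, and both are shown.
Prm1, chr16:10796824-10796943: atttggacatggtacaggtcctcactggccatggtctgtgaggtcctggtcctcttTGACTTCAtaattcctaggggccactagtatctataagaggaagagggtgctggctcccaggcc
Tnp1, chr1:73015900-73016019: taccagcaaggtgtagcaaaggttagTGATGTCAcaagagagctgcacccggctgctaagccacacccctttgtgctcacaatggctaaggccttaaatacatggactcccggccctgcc
Gapdhs, first start, chr7:30743682-30743801: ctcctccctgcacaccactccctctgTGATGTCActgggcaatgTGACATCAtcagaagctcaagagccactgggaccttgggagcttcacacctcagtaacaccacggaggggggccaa
Gapdhs, second start, chr7:30739408-30739527: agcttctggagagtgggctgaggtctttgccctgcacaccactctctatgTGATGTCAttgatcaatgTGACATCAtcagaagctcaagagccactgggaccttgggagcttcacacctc
Prm2, chr16:10792106-10792225: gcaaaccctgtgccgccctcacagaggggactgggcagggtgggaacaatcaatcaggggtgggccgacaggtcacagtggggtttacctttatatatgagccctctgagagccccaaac
Tnp2, chr16:10788656-10788775: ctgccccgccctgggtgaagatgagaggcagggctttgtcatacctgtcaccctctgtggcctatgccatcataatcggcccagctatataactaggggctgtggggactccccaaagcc

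The match lay 64 bases before the start in Prm1 and 94 bases before it in Tnp1, and the windows of Prm2 and Tnp2 held none. In the 250 bases before the start, 10 of the 31 germ cell genes with a RefSeq window (32.3%) held TGANNTCA, against 13.5% of 27025 genes. By class these were 8 of 18 spermatid genes, 2 of 9 spermatocyte genes (Pgk2 and Tex101) and 0 of 4 early germ cell genes. The exact palindrome TGACGTCA stood in 1 of the 31 windows, that of Izumo1, 96 bases before the start, against 1.77% of all windows. A match describes these letters only. Since TGANNTCA was chosen after the sequences had been seen, its share against all genes is no test. Prm1, Prm2, Prm3 and Tnp2 lie next to each other on the minus strand of chromosome 16, with gene bounds from 10787936 to 10805839 in GENCODE M21 on GRCm38.

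The 10 libraries held 17407456 to 34787330 counts. Levels are given as CPM, counts scaled to library size with TMM factors over all 10 libraries, and levels of different genes are compared only as CPM per kilobase of the longest annotated transcript. A count of 0 in a library allows up to 3 counts, which covers counting error only. The 9 Leydig markers used to check the labelled cell type all had a count in each primary and Hymeglusin library. In the first and second DMSO libraries 8 of the 9 had a count. In the third all 9 did, 8 of them above 3 counts. The sums were 20149 and 22289 CPM in the young cells, 18235 and 26424 CPM in the old cells and 9214 to 9436 CPM in DMSO-treated MLTC-1 cells. Counts of replicate pairs differed by more than sampling noise in every group, with a chi-square per degree of freedom of 3.44 to 7.67 in MLTC-1 cells, 18.9 at 2 months and 134 at 24 months. The 24-month pair therefore stands apart from the others in its spread, and the counts of age calls below are also given without one or the other library.

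In MLTC-1 cells the germ cell genes were nearly silent. Their counts together made up 0.0121% to 0.0161% of a library, and 16 to 22 of the 34 genes had no count at all in a given library. Tnp2, Smcp, Spaca3 and Gfra1 were at 0 in all 6 MLTC-1 libraries, and 28 of the 34 stayed under 1 CPM in each of them. What remained came almost wholly from Odf2, Hspa2, Gapdhs, Hspa1l and Ddx4, which supplied 98.2% to 98.8% of the summed CPM. Odf2, an outer dense fibre protein of the sperm tail that is also part of the centrosome of other cells, led with 73.2, 84.0 and 85.4 CPM in the DMSO libraries. Hspa2, a chaperone of the HSP70 family needed in meiosis, followed with 27.6, 26.5 and 24.2 CPM. Gapdhs, the glycolytic enzyme of the sperm tail, was at 6.80, 6.58 and 6.21 CPM, and Hspa1l, an HSP70 of spermatids, at 7.33, 6.17 and 5.23 CPM. Ddx4, the RNA helicase Vasa of germ cells, read 3.38, 4.16 and 3.79 CPM. Per kilobase the order Odf2, Hspa2, Gapdhs, Hspa1l, Ddx4, Sycp3 held with no overlap between neighbours in the DMSO libraries.

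The summed level of each class was far higher in every primary library than in any MLTC-1 library. Spermatid genes summed to 88.0, 97.4 and 97.9 CPM with DMSO and to 118, 115 and 119 CPM with Hymeglusin, against 2787 and 3889 CPM in young and 12913 and 7297 CPM in old primary cells. Spermatocyte genes summed to 25.1 to 35.1 CPM over the 6 MLTC-1 libraries, 788 and 1241 CPM in young cells, and 1624 and 1544 CPM in old cells. Early germ cell genes summed to 3.45 to 4.19 CPM in MLTC-1 cells, 124 and 183 CPM in young cells, and 66.2 and 139 CPM in old cells. The 34 genes took 0.377% and 0.553% of all counts in the 2-month libraries and 1.27% and 0.915% in the 24-month libraries. In RNA of a whole preparation, fewer cells of a type and less RNA per cell cannot be told apart.

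**Figure D1:**
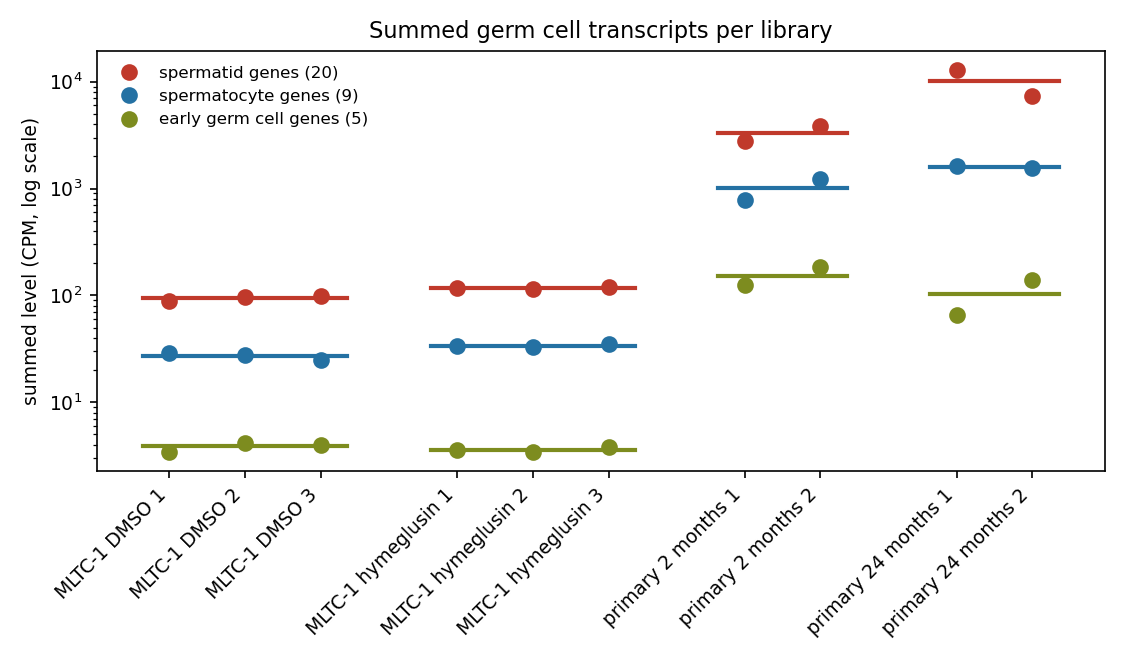
Summed level (CPM, log scale) of the 20 spermatid, 9 spermatocyte and 5 early germ cell genes in each of the 10 libraries, with 1 point per library and a line at each group mean. Spermatid genes run from 88.0 to 119 CPM in MLTC-1 libraries and from 2787 to 12913 CPM in primary libraries.

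In the test of 2-month primary cells against DMSO-treated MLTC-1 cells (edgeR quasi-likelihood F-test, two-sided, Benjamini-Hochberg adjusted over 16092 genes, threshold 0.05), all 33 germ cell genes tested were called higher and 0 lower. In that comparison 48.5% of all genes tested were called higher and 34.4% lower, and the median log2 change of all genes was 0.27. Stra8, which retinoic acid induces at entry into meiosis, had too few counts to be tested, with 0 and 0.63 CPM in young cells, and 0.66 and 0.99 CPM in old cells. The 2-month libraries lay above the DMSO libraries without overlap for all 33 tested genes, as for 50.5% of all genes tested. Within the MLTC-1 libraries alone 7 of the 34 passed the count filter, so most entered this test through their 2-month counts. For those, a call of higher and a lack of overlap were largely fixed by the filter, and the shares of all genes are no measure for them. Stra8 was the one gene whose 4 primary libraries did not all exceed the 6 MLTC-1 libraries. Of the 34 genes, 13 had no count in the DMSO group. For these the 2-month level was a lower bound computed against 3 counts over the group, from at least 50.2-fold higher for Gfra1, the GDNF receptor of spermatogonial stem cells, to at least 14936-fold higher for Prm2. The smallest ratios were those of Odf2, at 8.18 (95% exact Poisson interval 7.97 to 8.40), and Hspa2, at 8.68 (8.29 to 9.09). Intervals here are for counts pooled over a group and cover counting error only, not the spread between libraries. Odf2, for one, had 126 and 183 CPM per kilobase at 2 months, against 17.1 to 19.9 with DMSO. Ldhc, the lactate dehydrogenase of the testis, had 1 count in the DMSO group and 26202 counts in the 2-month group, a ratio of 44855 (8049.9 to 1771760).

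**Figure D2:**
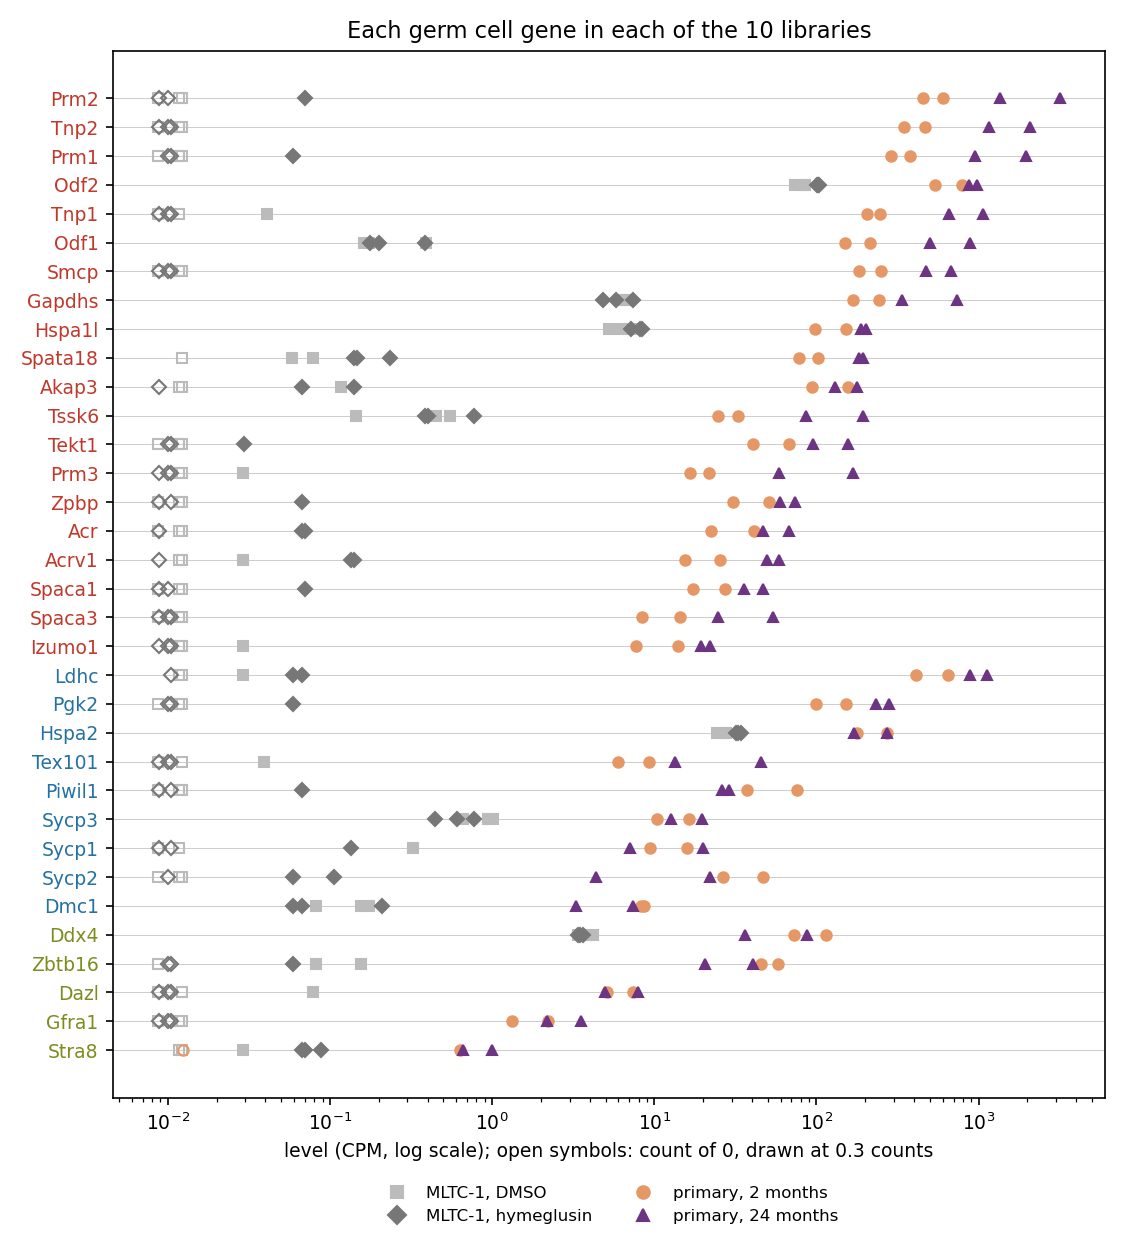
Level of each of the 34 genes (CPM, log scale) in each library, with spermatid genes named in red, spermatocyte genes in blue and early germ cell genes in green. Open symbols mark a count of 0 and are drawn at 0.3 counts to fit the log axis. In 33 of 34 rows all 4 primary libraries lie to the right of all 6 MLTC-1 libraries.

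Per kilobase of transcript, the nuclear proteins of late spermatids led in the primary cells. At 2 months Prm2 had 671 and 896, Tnp2 624 and 838, and Prm1 612 and 799 CPM per kilobase, and these 3 overlapped each other. Tnp1 followed at 470 and 564, then Ldhc at 301 and 470 and Smcp, a cysteine-rich protein of the sperm mitochondrial capsule, at 212 and 290 CPM per kilobase. Below these, Odf1 (136 and 194), Odf2 (126 and 183) and Gapdhs (115 and 166) overlapped. The lowest were Dazl, an RNA-binding protein that drives germ cell translation, at 1.71 and 2.48, Gfra1 at 0.29 and 0.48, and Stra8. At 24 months the first 4 were again Prm2, Prm1, Tnp2 and Tnp1, with overlapping values of 2003 to 4689, 2037 to 4182, 2087 to 3766 and 1496 to 2427 CPM per kilobase, all above Ldhc at 642 to 820. The spermatid sum per kilobase was 6.89 and 5.92 times the spermatocyte sum at 2 months, and 16.9 and 9.98 times at 24 months. The Prm and Tnp genes made up 46.9% and 44.0% of the spermatid CPM at 2 months and 65.3% and 57.2% at 24 months.

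Between 2 and 24 months 13 of 20 spermatid genes rose, and the genes of earlier stages were called in 2 cases. In 24-month against 2-month cells 15 of the 34 genes were called higher and 0 lower in edgeR's test (34 of 34 tested), where 13.5% of the 16381 genes tested were called higher and 15.1% lower. The median log2 change of the 34 genes was 1.02 against -0.01 for all genes tested. Spermatid genes supplied 13 of the 15 (13 of 20, median 1.48), spermatocyte genes 2 of 9 (median 0.20) and early germ cell genes 0 of 5 (median 0.14). At an unadjusted p under 0.05 the counts in the 3 classes were 17, 4 (among them Piwil1, lower at 24 months) and 0, and DESeq2 called 18 genes higher and 1 lower, where it called 17.0% and 17.9% of all genes. Without overlap between the ages, 23 of the 34 genes were higher at 24 months and 4 lower, where 33.7% and 40.6% of all genes tested were. The calls moved with single libraries, and so did the share called over the whole table. Without the first 2-month library 1 gene was called higher (Prm3), where 1.40% of all genes were, and without the second 4 (Prm3, Spaca3, Tex101 and Tssk6), where 2.83% were. Without the first 24-month library 13 were called higher, where 15.8% of all genes were, and without the second 17, where 25.1% were. The summed levels gave 3.03-fold for spermatid, 1.56-fold for spermatocyte and 0.668-fold for early germ cell genes (a log2 change of -0.58 that was -0.03 without the first 24-month library), with groups of 2 for which an exact permutation test cannot go below 0.33.

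The Prm and Tnp genes and Tssk6, 6 genes in all, were called higher, where 13.5% of all genes tested were. By transcript length, described below, the Prm and Tnp genes lie in the shortest class, where 50.6% were called higher. Tssk6 lies in the second, where 31.5% were. With the trend on the longest transcript taken out, only Tssk6 of the 6 stayed called, and with median coding length in its place all 6 did. Prm1, the main protamine, stood at 287 and 375 CPM in young cells and at 1961 and 956 CPM in old cells, a log2 change of 2.23 ± 0.42 (SE, adjusted p = 0.0104). Prm2, its partner that is made as a longer precursor, went from 453 and 604 CPM to 3160.2 and 1349.8 CPM (2.19 ± 0.46, adjusted p = 0.0130). In both genes the 24-month libraries lay above the 2-month libraries without overlap, and the first 24-month library was above the second. Prm3, a small acidic protein encoded in the same cluster, had the largest change of the 34, from 16.5 and 21.7 CPM to 169 and 58.9 CPM (2.67 ± 0.50, adjusted p = 0.0102). Tnp1 read 206 and 246 CPM in young cells, against 1060.4 and 654 CPM in old cells, a log2 change of 2.01, and Tnp2 346 and 464 CPM against 2086 and 1156 CPM, a change of 2.09. Tssk6, a testis kinase needed for the exchange of histones, rose from 24.6 and 32.8 CPM to 195 and 85.6 CPM (2.38 ± 0.44, adjusted p = 0.0100). Of its exon bases, 28.1% are shared with Ndufa13 on the opposite strand, and the strand setting of the counting is not given in the sources used here, so their reads cannot be told apart there.

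Of 7 genes of the flagellum and its mitochondria, 5 were called higher, where 13.5% of all genes tested were. In the shortest length class, with Odf1 and Smcp, 50.6% were. The shares were 31.5% in the second, with Gapdhs and Tekt1, and 17.3% in the third, with Spata18. With the trend on the longest transcript taken out, described below, 0 of these 5 were called, and Odf2, not called without it, was. With median coding length in its place, Odf1 was called (1.32, adjusted p = 0.0152). Odf1, the major outer dense fibre protein, went from 150.2 and 215 CPM to 882 and 503 CPM (log2 change 2.02 ± 0.40, adjusted p = 0.0112). Smcp went from 183 and 249.9 CPM to 671 and 471 CPM (1.49), and Gapdhs from 168 and 242 CPM to 730.3 and 338 CPM (1.47). Tekt1, a tektin of flagellar microtubules (1.31), and Spata18, a factor of mitochondrial quality control (1.13), rose by less. Spata18 had the closest 24-month libraries of these, at 192 and 182 CPM, above 78.4 and 103 CPM at 2 months. Without the first 24-month library the calls of Gapdhs (0.74, adjusted p = 0.0543) and Tekt1 (0.84, adjusted p = 0.0717) were lost. Odf2 had 540.0 and 785 CPM in young cells, against 971 and 867 CPM in old cells (0.56, adjusted p = 0.227). Akap3, an anchor of protein kinase A in the fibrous sheath, overlapped between the ages, with 93.9 and 157 CPM in young cells, against 179 and 130.5 CPM in old cells (0.39, adjusted p = 0.425).

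Of the 6 genes of the acrosome and of egg binding, 2 rose, where 13.5% of all genes tested were called higher. All 6 had higher values in both 24-month libraries than in both 2-month libraries, as did 33.7% of all genes tested. Acrv1, an acrosomal vesicle protein, went from 15.5 and 25.6 CPM to 58.7 and 49.4 CPM (1.49 ± 0.35, adjusted p = 0.0183). Spaca3, a lysozyme-like protein of the acrosome, went from 8.45 and 14.4 CPM to 54.3 and 24.7 CPM (1.88 ± 0.45, adjusted p = 0.0190). The others did not pass the test. Izumo1, needed for fusion with the egg, had a log2 change of 1.03 (adjusted p = 0.0677) and shares 21.9% of its exon bases with Rasip1 on the same strand. Spaca1, of the acrosomal membrane, had 0.98 (adjusted p = 0.0617), the protease acrosin (Acr) 0.94 (adjusted p = 0.0910) and Zpbp, a zona pellucida binding protein, 0.80 (adjusted p = 0.112). Hspa1l, of which 71.9% of exon bases lie opposite an antisense gene that is not itself in the count table, read 98.3 and 151 CPM in young cells, against 188 and 203 CPM in old cells, a change of 0.73 (adjusted p = 0.122).

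The spermatocyte genes did not move in one direction. Pgk2, the phosphoglycerate kinase that replaces Pgk1 when the X chromosome is silenced in meiosis, rose from 99.4 and 152 CPM to 232 and 281 CPM (1.12 ± 0.34, adjusted p = 0.0376). Tex101, a surface protein of germ cells, rose from 5.97 and 9.23 CPM to 45.8 and 13.4 CPM (2.05 ± 0.55, adjusted p = 0.0258). The call for Tex101 was lost without the first 24-month library (log2 change 0.83, adjusted p = 0.0764), the library that held the high value. Ldhc was the most abundant of this class, at 413 and 643 CPM in young cells, against 1123 and 879 CPM in old cells. Its groups did not overlap and its change of 1.01 missed the threshold (adjusted p = 0.0574). Pgk2, Ldhc, Hspa2 and Hspa1l have close relatives in the genome, and reads shared with these may have been split or dropped by the authors' counting.

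The structural genes of the meiotic chromosome had no call. Sycp2, of the axial element of the synaptonemal complex, was lower in both 24-month libraries, at 4.37 and 22.0 CPM, than at 2 months, with 26.4 and 46.7 CPM (-1.38 ± 0.62, adjusted p = 0.119). Without the second 24-month library its change was -3.03 and was called (adjusted p = 0.00202). Sycp1, the transverse filament protein, had 9.41 and 15.8 CPM in young cells, against 7.09 and 20.1 CPM in old cells, and Sycp3 had 10.4 and 16.4 CPM against 12.7 and 19.7 CPM. For both, the groups overlapped. For Sycp3, 52.2% of exon bases are shared with Chpt1 on the opposite strand. Piwil1, which binds the piRNAs of pachytene spermatocytes, had 37.2 and 75.4 CPM in young cells, against 26.2 and 28.8 CPM in old cells (-0.94, adjusted p = 0.0864). The recombinase Dmc1 had 8.33 and 8.64 CPM against 3.31 and 7.41 CPM (-0.58), and Hspa2 had 178 and 273 CPM against 169.8 and 272 CPM (0.06).

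Of the 5 early germ cell genes 0 were called by edgeR or DESeq2, and their values for the most part overlapped between the ages. Ddx4 was the most abundant, with 72.2 and 114 CPM in young cells, against 36.5 and 87.2 CPM in old cells (-0.51 ± 0.44, adjusted p = 0.394). Zbtb16, the transcription factor PLZF that maintains spermatogonial stem cells and is also made in other cells, read 45.8 and 58.0 CPM against 20.5 and 40.9 CPM (-0.68, adjusted p = 0.202), with no overlap. Dazl had 5.10 and 7.37 CPM against 4.97 and 7.95 CPM, and Gfra1 1.33 and 2.22 CPM against 3.51 and 2.19 CPM. Stra8, tested here, had a change of 1.48 ± 1.14 (adjusted p = 0.343) at under 1 CPM in every library. Without the second 24-month library, Ddx4, Zbtb16, Dmc1 and Sycp2 were called lower, 4 of the 34, where 33.2% of all genes tested were called lower.

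Transcript length moved with these changes across the whole table. When the tested genes were divided into 10 equal classes by their longest annotated transcript, 50.6% of the shortest (up to 1107 bases) were called higher at 24 months and 1.72% lower, and 1.17% and 54.5% of the longest (from 6564 bases). The median log2 change fell from 1.41 in the shortest class to -1.41 in the longest. Germ cell genes sit towards the short end: 8 were in the first class and 9 in the second, and none in the last. Had each gene been called at the rate of its length class, 8.20 of the 34 would have been higher and 2.43 lower, against 15 and 0 observed. For spermatid genes the corresponding rate was 6.19 against 13 observed, for spermatocyte genes 1.63 against 2, and for early germ cell genes 0.38 against 0.

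Set against the median of their own length class, all 20 spermatid genes had a larger change than the class median, and 15 lay above its upper quartile. The median excess was 0.63 for spermatid genes, -0.14 for spermatocyte genes and 0.31 for early germ cell genes. Of the spermatocyte genes 4 of 9 exceeded their class median, and Dmc1, Piwil1 and Sycp3 lay below its lower quartile. In the shortest class all 8 germ cell genes (Prm1, Prm2, Prm3, Tnp1, Tnp2, Odf1, Smcp and Spaca3) were called, and Smcp exceeded the class median by 0.09 where Prm3 exceeded it by 1.26. Among the 9 genes in the length classes from 3091 to 6561 bases the excess was 1.74 for Acrv1 (3265 bases), 1.501 for Zpbp (4248 bases), 1.47 for Gfra1 (4641 bases) and 1.26 for Odf2 (4291 bases). It was smaller for Akap3 (0.64), Sycp1 (0.45) and Zbtb16 (0.31), and below 0 for Sycp2 (-0.39) and Piwil1 (-0.53). These excesses rest on the longest transcript. The median coding transcript is shorter for Acrv1 (1101 bases), Odf2 (2370 bases) and Gfra1 (1389 bases), and as long for Zpbp (4248 bases). Across the 34 genes the log2 change and the log2 length had a Pearson correlation of -0.79 (Spearman -0.79), within spermatid genes -0.83 (n = 20) and within the other classes -0.72 (n = 14). These are correlations across genes of the same 4 libraries, which are not independent replicates.

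**Figure D3:**
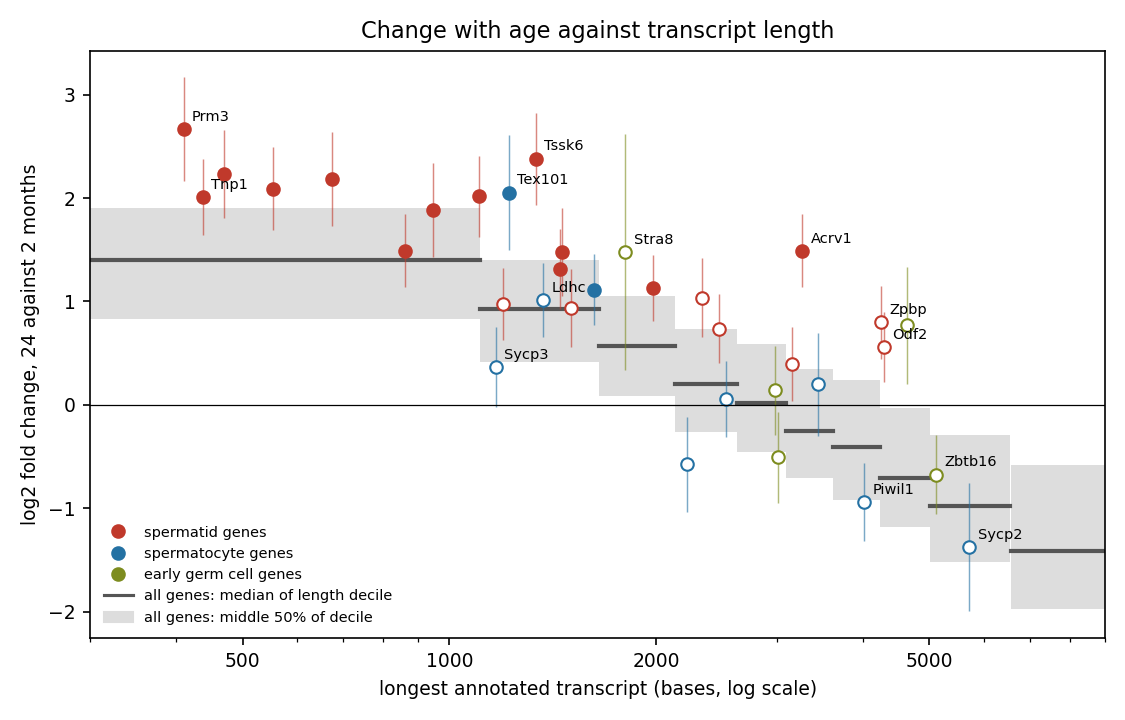
Log2 fold change at 24 against 2 months of each germ cell gene (points, with 1 SE; filled where called) by length of the longest transcript in bases (log scale), over the median (line) and the middle 50% (grey) of all tested genes in each of 10 length classes. All 20 spermatid genes lie above the line of their class.

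When a smooth trend on transcript length was taken out of each library before the test, 4 spermatid genes were called higher and 0 genes lower, where 6.31% and 5.31% of all genes were. These were Acrv1 (1.57, adjusted p = 0.0107) and Tssk6 (1.28, adjusted p = 0.0258), which were also called without it, and Zpbp (1.25, adjusted p = 0.0316) and Odf2 (1.03, adjusted p = 0.0447), which were not. The changes of the shortest genes shrank most, to 0.41 for Prm1 (adjusted p = 0.342), 0.51 for Prm2 (adjusted p = 0.249) and 0.76 for Prm3 (adjusted p = 0.127), and Smcp was at 0.08 (adjusted p = 0.883). These calls depended on the length assigned to a gene. With the median coding transcript in place of the longest, 8 spermatid genes were called higher, where 7.97% of all genes were, among them Prm1 (1.22, adjusted p = 0.0174), Prm2 (1.30, adjusted p = 0.0190) and Prm3 (1.59, adjusted p = 0.0150), and Acrv1, whose length went from 3265 to 1101 bases, was not (0.83, adjusted p = 0.102). Whether length or age sets the values of the shortest genes was not tested.

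The replicate libraries of each age differed in the levels of the germ cell genes, and in different ways. At 2 months all 34 genes were higher in the second library than in the first, with a median log2 ratio of 0.62 that was alike for spermatid (0.53), spermatocyte (0.63) and early germ cell genes (0.57). Of all genes tested, 49.3% were higher there, with a median of -0.003, and the medians of the 10 length classes spanned -0.02 to 0.09. At 24 months the classes parted: 18 of 20 spermatid genes were lower in the second library (median -0.62), and 7 of 9 spermatocyte (median 0.62) and 4 of 5 early germ cell genes (median 0.63) were higher. The 2 spermatid genes that were higher were Spaca1 and Hspa1l. Length moved with that difference as well, since the medians of the length classes ran from -0.62 in the shortest to 0.59 in the longest. Sycp2, the longest of the 34 at 5717 bases, had the largest ratio of the second to the first 24-month library (2.21), and Tex101 the smallest (-1.73). The part of length in the difference between the 24-month libraries was not tested for the germ cell genes.

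**Figure D4:**
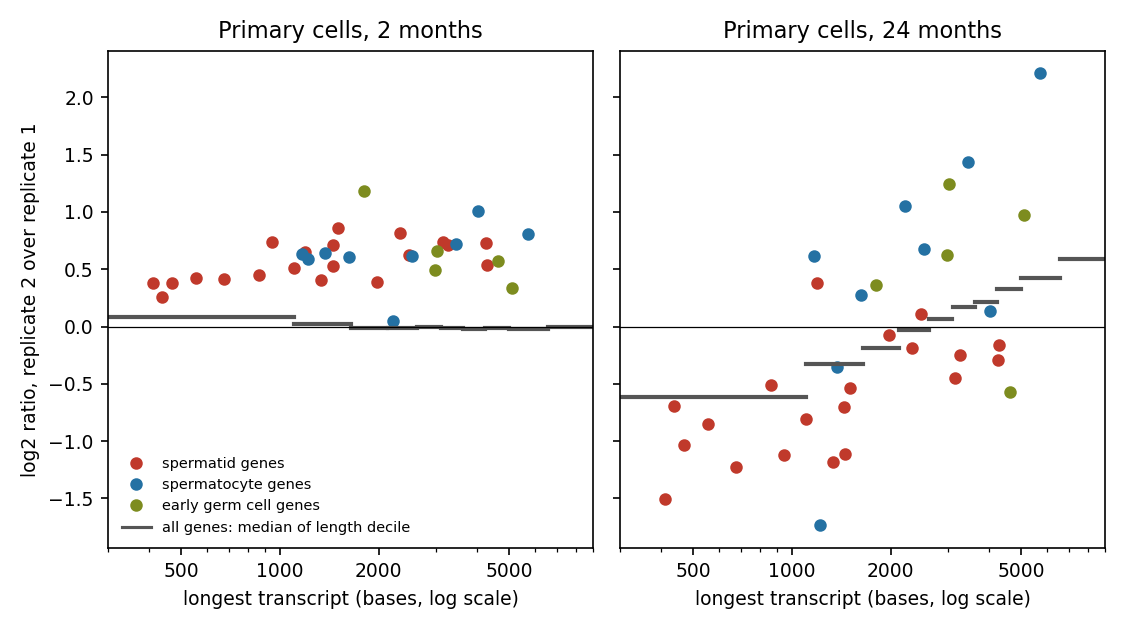
Log2 ratio of the second over the first replicate library (CPM plus a pseudocount of 0.5) for each germ cell gene, by longest transcript in bases (log scale), at 2 months (left) and 24 months (right), with lines at the median of all tested genes in each length class. All 34 points lie above 0 at 2 months, and 18 of 20 spermatid genes lie below 0 at 24 months.

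A longer list of 113 other germ cell genes in the table, grouped by stage of expression, also had most of its calls among spermatid genes. In 24-month against 2-month cells 33 of 44 tested spermatid genes were called higher and 0 lower (median 1.52), 7 of 41 spermatocyte genes higher and 2 lower (median 0.58), and 1 of 15 early germ cell genes in each direction (median 0.86). At the rates of their length classes 12.4, 6.51 and 2.29 would have been higher. The spermatid genes of smallest adjusted p were Cypt1, a cysteine-rich perinuclear theca protein (2.30), Tex37 (2.17) and Spem1, needed to shed spermatid cytoplasm (2.11). Among spermatocyte genes Syce3 (2.38) and Syce2 (1.58), both of the central element of the synaptonemal complex, and Spink2, a protease inhibitor of the acrosome (1.72), rose, and Tdrd6, a component of the chromatoid body (-1.73), and Tex15, of meiotic recombination (-1.39), fell. Syce3 is annotated with 480 bases, Tdrd6 with 7059 and Tex15 with 8405.

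Markers of other testis and blood cells also differed between the ages. Of 9 macrophage markers 4 rose (C1qa, C1qb, C1qc and Lyz2) and 0 were called lower, where the rates of their length classes give 2.08 higher. Adgre1 was lower at 24 months without overlap (-1.18, adjusted p = 0.290), as were 40.6% of all genes tested. In all, 7 of the 9 had a positive change and 2 a negative one. The sum of all 9 went from 13.2 and 15.4 CPM to 54.6 and 45.5 CPM, with no marker at 0. The neutrophil markers were at 0 in both 2-month libraries and summed to 9.01 and 85.3 CPM at 24 months, with Ly6g at 0 throughout. The 4 that were tested passed the filter only through the 24-month libraries, so their calls of higher were fixed by it. The Sertoli markers, cells of the tubules that touch the germ cells, had 1 of 9 called lower (Aard) and 0 higher, and sums of 191 and 163 CPM in young cells, against 78.1 and 93.9 CPM in old cells, with Fshr at 0 at 24 months. Aard supplied 88.4% and 85.2% of the young sums, and the other 9 markers together read 22.1 and 24.1 CPM in young cells, against 33.2 and 30.5 CPM in old cells. Of the 9 tested, 8 had a positive change and 4 were higher at 24 months without overlap, as were 33.7% of all genes tested. Peritubular myoid markers summed to 3.98 and 4.87 CPM in young cells, against 18.5 and 5.75 CPM in old cells, with 1 of 4 called (Acta2, higher). Of the 9 Leydig markers, 1 was called higher (Insl3) and 1 lower (Lhcgr). The spermatid sum was highest in the first 24-month library, and so were most marker sums. Against the second it had larger Leydig (26424 and 18235 CPM), macrophage, myoid, endothelium (26.8 and 11.5 CPM) and lymphocyte sums (13.4 and 6.83 CPM). Its Sertoli, neutrophil and red blood cell sums (the last 1.99 and 2.07 CPM) were smaller. The part of other cells in the age difference of the germ cell genes was not tested.

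With Hymeglusin most germ cell genes of MLTC-1 cells were too low to test. The spermatid sum, led by Odf2, was 115 to 119 CPM, against 88.0 to 97.9 CPM with DMSO. Of the 34 genes, 7 had enough counts to be tested against DMSO, and 2 (28.6%) were called higher and 0 lower. Among all 12873 genes 23.8% were called higher, a share close to that, and 24.5% lower. Odf2 rose from 73.2, 84.0 and 85.4 CPM to 102, 101 and 103 CPM (log2 change 0.26 ± 0.06, adjusted p = 0.000202). Hspa2 rose from 27.6, 26.5 and 24.2 CPM to 32.8, 31.8 and 34.4 CPM (0.27 ± 0.07, adjusted p = 0.00255). In both genes the groups did not overlap, as for 35.6% of all genes in that direction, and both calls were lost when all 10 libraries were fitted together (adjusted p = 0.204 and 0.356). Hspa1l (0.27, adjusted p = 0.0958), Gapdhs (-0.18, adjusted p = 0.305), Ddx4 (-0.19, adjusted p = 0.389), Sycp3 (-0.62, adjusted p = 0.174) and Tssk6 (0.43, adjusted p = 0.502) did not pass the test. At an unadjusted p under 0.05 and with DESeq2 the calls were also 2 higher and 0 lower. The other 27 genes stayed under 1 CPM with and without Hymeglusin, and a change in them was not detectable at this depth.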

How the data were processed

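The deposited values are raw counts of reads per gene symbol, which the authors did not normalize. Per the submitters' processing notes, the build was mm10 and the tools were featureCounts 2.0.6, HISAT2 2.2.1, FastQC 0.12.1 and fastp 0.23.4, with no order given. No source used here gives their options, strand setting or annotation. The table had 0 duplicated symbols and 0 value columns of no sample. Groups came from the labels.

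Counts were tested with edgeR 4.0.16 (limma 3.58.1, R 4.3.3). The filter was filterByExpr with a minimum count of 10 and a minimum total of 15, and libraries were scaled by TMM. Groups were compared with a two-sided quasi-likelihood F-test (robust), adjusted by Benjamini-Hochberg over every gene tested, at a threshold of 0.05. Each comparison was fitted on its own libraries. The standard error is the log2 change divided by the square root of F. Levels and sums are CPM scaled by TMM over all 10 libraries without the count filter, so folds of levels and fitted changes are not on the same scale. Lengths are the longest GENCODE M21 transcript (24708 symbols matched, all 34 germ cell genes among them). The trend on length was fitted per library by loess (span 0.3). Promoter windows are those of RefSeq for GRCm38.p6, of which 31 matched. The scripts were tested on simulated data.

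All 34 genes are reported. Of the other germ cell genes, at most 3 per class and direction were named by adjusted p, and at most 3 per class by their summed MLTC-1 count. Of the 114 other germ cell genes listed, 113 were in the table. The germ cell genes, the lists, the tests and the alternatives were chosen with earlier results of these data known. The alternatives were limma-voom, DESeq2 1.42.0, scaling by RLE or by total counts, testing without a count filter or only genes above 10 CPM, offsets for length and for length and GC content, the replicate number as a block, 1 joint fit of the 10 libraries, and dropping each library in turn. The offset on median coding length was chosen after seeing the data.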

Additional observations from a re-analysis of the deposited data

How the results depend on the processing

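The count of germ cell genes called higher at 24 months, 15, was 8 with total-count scaling, 4 with the length offset, 4 with an offset for length and GC content, 4 with the length offset and replicate block, and 8 with median coding length (chosen after seeing the data). Of the 15, these fits kept 8, 2, 2, 2 and 7. Leaving out 1 library gave 1 to 17 higher and 0 to 4 lower. The count of genes called lower, 0, became 1 with DESeq2 (Sycp2) and 2 without the count filter (Sycp2 and Piwil1). The replicate block gave 16 higher and 1 lower (Sycp2), with the 15 kept. The replicates share only a number: the deviations of same-numbered libraries had a correlation of -0.093 between the ages and of -0.026 to 0.054 with Hymeglusin, where not every library correlated best with its own number, and the block changed no other count of germ cell genes by over 1.5 times. The 2 genes called with Hymeglusin became 0 in the fit of all 10 libraries. Total-count scaling moved the share of higher calls among all calls from 47.3% to 29% with age (531 higher and 1301 lower) and from 49.4% to 70% with Hymeglusin (4659 and 1996), and the median of all genes to -0.21 and 0.11.

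Signs turned in genes without a call. With the length offset these were Spaca1 (-0.070), Hspa2 (-0.18), Sycp3 (-0.68) and Zbtb16 (0.022). With length and GC content they were Acr (-0.033), Spaca1 (-0.086), Hspa2 (-0.21) and Sycp3 (-0.68). With length and the block they were Spaca1 (-0.13), Hspa2 (-0.21) and Sycp3 (-0.78). With median coding length they were Sycp3 (-0.22) and Zbtb16 (0.020), and with total counts Dazl (-0.049) and Hspa2 (-0.13). Leaving out 1 primary library gave ranges across 0 for Dazl (-0.29 to 0.37), Hspa2 (-0.37 to 0.33), Sycp1 (-0.79 to 0.69) and Sycp3 (-0.037 to 0.66), and leaving out 1 MLTC-1 library for Tssk6 with Hymeglusin (-0.036 to 0.81). The cause was not tested for any of these.

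On the log2 scale, the class sums of 2-month over DMSO cells were 5.14 for spermatid, 5.22 for spermatocyte and 5.30 for early germ cell genes. They were 7.15 and 5.74 per kilobase for the first 2 classes, and 4.90, 4.16 and 9.03 without the most abundant gene. Without 1 library they were 4.88 to 5.40, 4.86 to 5.55 and 4.999 to 5.59. The age difference of the spermatid sum was 1.60, or 1.24 to 2.08 without 1 library. That of the spermatocyte sum was 0.64, 0.26 without the most abundant gene and 0.47 to 1.01 without 1 library. That of the early germ cell sum was -0.58, and -1.08 to -0.03 without 1 library. In MLTC-1 cells depth limits what can be said of 27 of the 34 genes.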

Other observations

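Some germ cell genes outside the 34 were expressed in MLTC-1 cells, several above their level in the primary cells. Mov10l1, an RNA helicase of piRNA processing, read 336 to 361 CPM in the 6 MLTC-1 libraries and 4.31 to 10.5 CPM in the 4 primary libraries. Tex15 read 43.5 to 51.6 CPM against 3.15 to 12.3 CPM, and Dnd1, an RNA-binding protein of germ cell survival, 20.8 to 26.6 CPM against 3.61 to 9.07 CPM. Syce2 stood at 28.0 to 32.0 CPM in MLTC-1 cells and at 19.2 to 66.3 CPM in primary cells. Txndc2, a thioredoxin of spermatids, was lower in the line, at 27.7 to 30.5 CPM against 137 to 178 CPM.

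With Hymeglusin, 28 of these other germ cell genes could be tested, of which 12 were called higher and 2 lower by edgeR. Of all genes tested, 23.8% were called higher and 24.5% lower. The 2 called lower were Dkkl1 (-0.83, adjusted p = 0.00924) and Mov10l1 (-0.13, adjusted p = 0.0216). Mybl1, a transcription factor of meiosis, rose from 14.6, 14.0 and 12.1 CPM to 24.0, 23.6 and 23.2 CPM (log2 change 0.73, adjusted p = 1.13e-08). Etv5, which GDNF induces in spermatogonia and which many other cells make, rose from 15.9, 15.4 and 18.6 CPM to 23.8, 23.0 and 23.5 CPM (0.43, adjusted p = 9.37e-05). Rec8, a cohesin of meiosis that was singled out after its values were seen, rose by 1.11 (adjusted p = 2.80e-11).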
